A study of Mus musculus with 2 samples.

Results

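The genes described here make the building blocks of DNA and RNA. They are a list of 38 mouse genes for ribonucleotide reductase, deoxynucleotide supply, pyrimidine and purine synthesis, purine salvage, the folate one-carbon pathway and serine synthesis. The list was chosen by name, with no measured value in the rule, although earlier results of these data were known. All 38 symbols were found among 43346 Ensembl gene rows, of which 21461 were protein-coding genes of the nucleus. Levels came from 2 total RNA-seq libraries of G1E-ER4 cells, mouse erythroid cells in which the endogenous Gata1 gene is missing and an added form of the factor becomes active with estradiol. Both cultures had been given 10 nM 17beta-estradiol for 24 h and were labelled as biological replicates 1 and 2 of 1 group. Both libraries were therefore of the same genotype and treatment, and no untreated library was analysed here. A single cell line stands for the erythroblast in these data, and less RNA per cell could not be told apart from fewer cells making it.

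Cells build pyrimidines and purines on a ribose phosphate from simple precursors, or recover finished bases and nucleosides by salvage. Ribonucleotide reductase then turns ribonucleotides into deoxyribonucleotides, and thymidylate synthase makes the base that is found in DNA alone. Serine feeds the folate pathway, which supplies single carbons for purine rings and for thymidylate. Erythroid precursors divide while they mature and are known to be sensitive to a shortage of folate.

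Replicate 1 held 62081014 expected counts and replicate 2 held 41051163. All 9 erythroid marker genes reached 1 TPM, a level scaled for transcript length and for library size, in both libraries. Gata1, which is among the 9, read 60.0 and 73.2 TPM. That value does not tell the added form from any RNA left of the cell's own gene, described above as missing. Because an added form is carried, the level of Gata1 is no marker of cell type here. None of the 8 myeloid, 5 mast cell, 6 lymphoid or 5 stromal and endothelial markers reached 1 TPM, although 2 of 5 megakaryocyte markers did in both libraries, Itga2b at 2.04 and 1.70 TPM and Gp1ba at 1.84 and 1.44 TPM. The summed myeloid level was 0.150 TPM in replicate 1 and 1.69 TPM in replicate 2. Of 18 S phase and mitosis genes, 18 were higher in replicate 2, by a median of 0.91 on the log2 scale of CPM (counts scaled to a common library size). For the 9 erythroid genes the median was 0.16, with 7 higher and 2 lower in replicate 2, and 2 at least 1.5-fold higher. With 2 replicates the smallest two-sided exact p is 0.5, so no test across replicates was possible and values are given for each library.

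Of the 38 genes, 35 were at or above 1 TPM in both libraries, or 92.1%, beside 36.3% of all nuclear protein-coding genes. The 3 that were not were Dctd, Impdh1 and Phgdh. Most of the others stood at moderate levels. The median over the 38 was 3.67 TPM in replicate 1 and 5.38 TPM in replicate 2, with a mean of 4.52 TPM (SD 1.21, n = 2). Protein-coding genes at or above 1 TPM in both libraries had medians of 6.44 and 6.38 TPM. The 35 genes of the list at that level had lower medians, 3.92 and 5.45 TPM. Only 8 of the 38 reached 10 TPM in both libraries, and the 5 highest by mean level, Dtymk, Paics, Hprt, Rrm1 and Rrm2, held 42.3% and 43.5% of the TPM of the list. Together the 38 held 0.182% and 0.244% of the TPM of nuclear protein-coding genes. Those genes summed to only 140991 and 143913 TPM in replicates 1 and 2, so most TPM lay in other rows. Scaled to those genes alone, levels would be 7.09 and 6.95 times as high. A cut of 1 TPM is therefore stricter here than on that scale. When the genes were put in order of mean level, 30 of the 37 neighbouring pairs had ranges over the libraries that overlapped, so the order is firm only between genes that stand well apart.

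**Figure D1:**
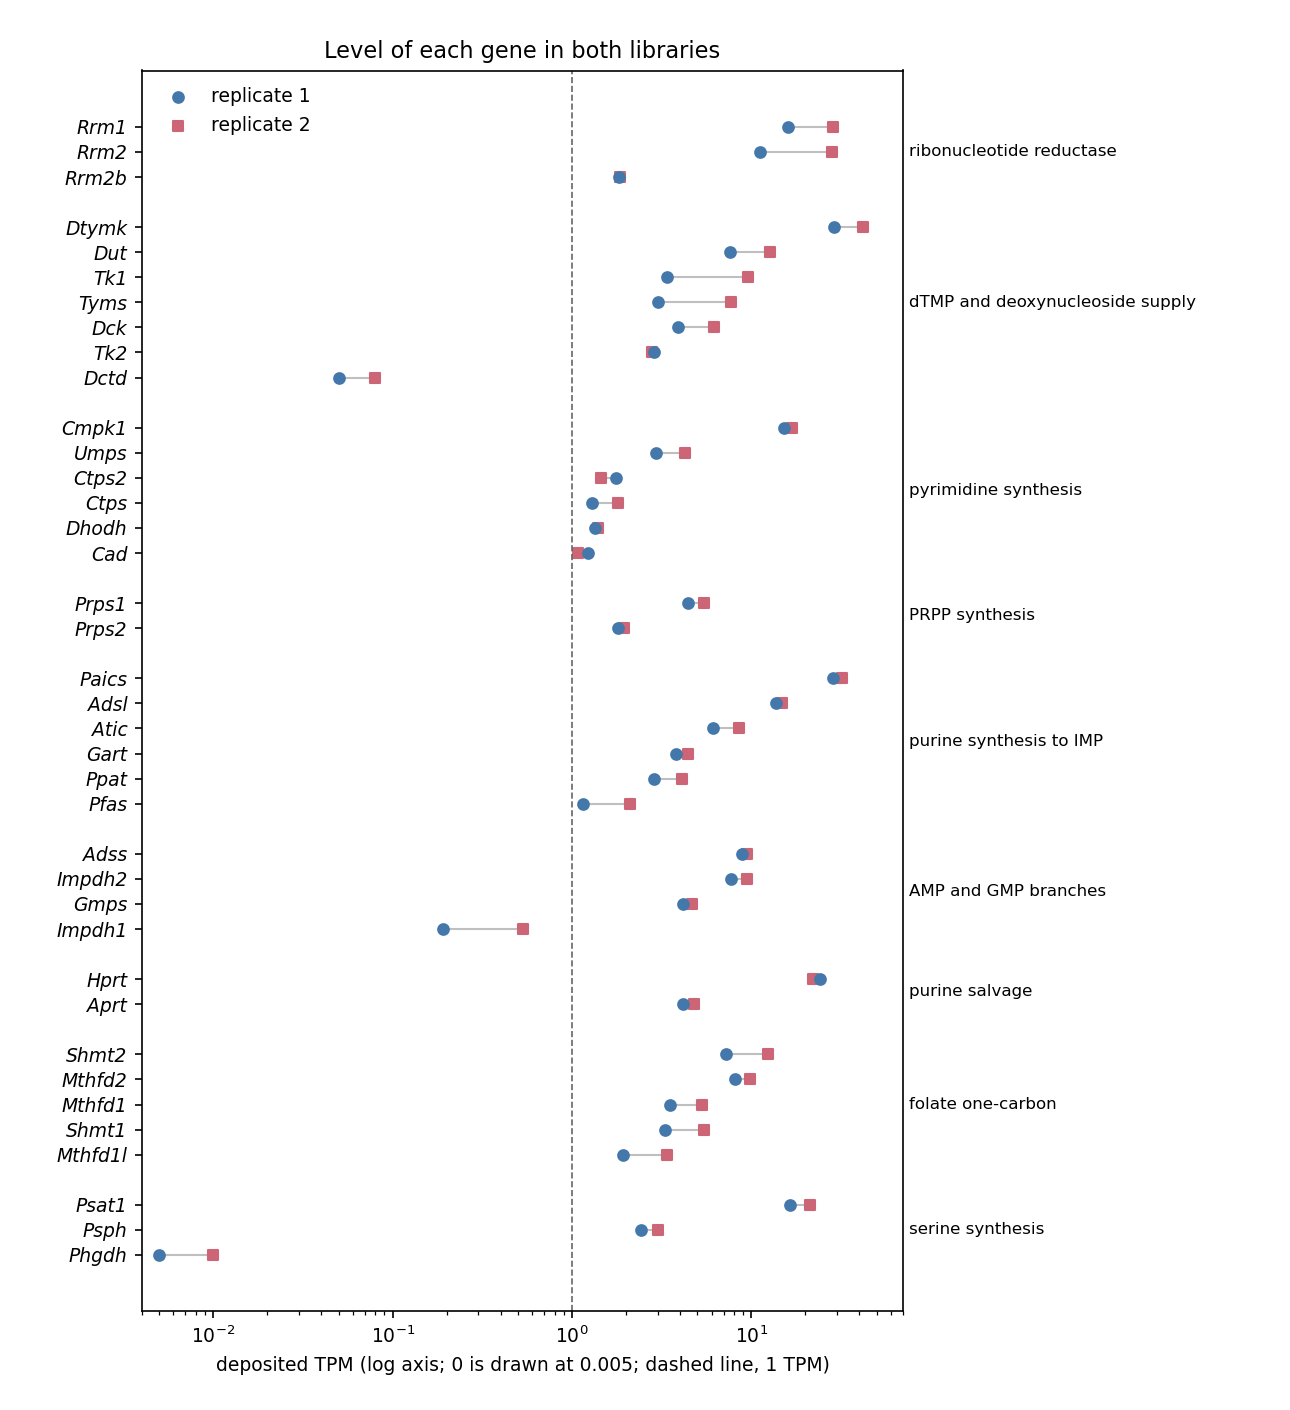
Deposited TPM on a log axis for each of the 38 genes, by role, with 1 point for each library (circle, replicate 1; square, replicate 2) and a dashed line at 1 TPM. Dctd, Impdh1 and Phgdh lie to the left of the line. Impdh1, Phgdh, Rrm1, Rrm2, Tk1, Tyms, Pfas, Mthfd1l and Shmt2 show wide gaps between their points.

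Ribonucleotide reductase is made of a large catalytic subunit, Rrm1, and a small subunit that is either Rrm2, which dividing cells make during S phase, or Rrm2b, which p53 can induce. Rrm1 read 16.1 TPM in replicate 1 and 28.6 TPM in replicate 2, from 12522 and 15358 counts. Rrm2 read 11.2 and 28.3 TPM, from 3618 and 6359 counts. Rrm2b read 1.83 and 1.84 TPM. The large subunit and the S phase subunit were thus higher in replicate 2, while Rrm2b was level between the libraries. Rrm2 exceeded Rrm2b 6.11-fold in replicate 1 and 15.4-fold in replicate 2, whereas Rrm1 and Rrm2 stood within 1.44-fold and 1.01-fold of each other.

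The stretches just upstream of the start are shown for both of these subunits because both were higher in replicate 2. Sequences are RefSeq promoters on GRCm38.p6, 200 bases ending at the base before the start, and capitals mark CCAAT on the strand of the gene.
Rrm1 (chr7:102441495-102441694, plus strand): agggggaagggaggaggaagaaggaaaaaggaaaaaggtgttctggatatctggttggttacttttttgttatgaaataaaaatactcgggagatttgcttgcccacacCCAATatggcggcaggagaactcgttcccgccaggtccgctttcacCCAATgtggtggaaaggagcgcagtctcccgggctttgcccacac
Rrm2 (chr12:24708054-24708253, plus strand): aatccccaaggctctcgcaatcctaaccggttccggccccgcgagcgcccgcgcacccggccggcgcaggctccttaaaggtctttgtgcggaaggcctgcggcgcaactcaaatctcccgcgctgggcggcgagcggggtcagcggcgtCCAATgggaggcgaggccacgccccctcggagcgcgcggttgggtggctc
Both windows hold CCAAT, at 91 and 45 bases before the start of Rrm1 and at 50 bases before that of Rrm2. The Rrm1 window was 50.5% G and C and the Rrm2 window 71.5%, beside a median of 53.0% over all genes.

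Thymidylate and the other deoxynucleotides are supplied by synthesis and by salvage. Tyms, thymidylate synthase, read 3.00 TPM in replicate 1 and 7.74 TPM in replicate 2, from 725 and 1078 counts. Tk1, the thymidine kinase of dividing cells, read 3.37 and 9.56 TPM. Tk2, its mitochondrial counterpart, read 2.86 and 2.78 TPM. Tyms and Tk1 were both far higher in replicate 2 and Tk2 was not, so the ratio of Tk1 to Tk2 went from 1.18 in replicate 1 to 3.44 in replicate 2. On counts that are not divided by length, Tk1 was below Tk2 in replicate 1, at 790 beside 1288. It was above Tk2 in replicate 2, at 1333 beside 863, and the mean log2 ratio of -0.04 hides this change of sign. Dck, deoxycytidine kinase, read 3.92 and 6.22 TPM and stood above Tk1 in replicate 1 and below it in replicate 2. On protein-coding transcripts Dck was above Tk1 in both libraries, with log2 ratios of Tk1 to Dck of -0.55 and -0.08, and on counts the mean was -1.24. On the same transcripts Tk1 over Tk2 was -0.09 and 1.08.

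Dtymk, which phosphorylates dTMP from either source, was the most abundant gene of the list at 28.9 and 41.9 TPM. Dut, the dUTPase that keeps uracil out of DNA and yields the substrate of Tyms, read 7.62 and 12.7 TPM. Both were higher in replicate 2. Dctd, which deaminates dCMP to dUMP, was near the limit of detection at 0.05 and 0.08 TPM, on 6 and 16 counts. Within deoxynucleotide supply the levels of Dtymk and Dctd therefore lay near opposite ends of the list.

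The upstream window of Tyms is shown because Tyms had one of the largest differences between the libraries. Its build and length are as above, and here capitals mark CACGTG, the E-box that MYC and USF proteins can bind, which reads the same on both strands.
Tyms (chr5:30073626-30073825, minus strand): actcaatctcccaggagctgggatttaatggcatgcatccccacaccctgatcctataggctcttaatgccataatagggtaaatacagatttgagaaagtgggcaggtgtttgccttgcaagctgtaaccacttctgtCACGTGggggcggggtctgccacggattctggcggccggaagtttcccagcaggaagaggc
The E-box lies 61 bases before the RefSeq start, and the window was 53.0% G and C.

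In new pyrimidine synthesis, Cad carries out the opening steps, Dhodh works at the inner mitochondrial membrane and Umps makes UMP. Cad read 1.22 and 1.08 TPM, on 1086 and 772 counts. Dhodh read 1.35 and 1.40 TPM. Umps was higher, at 2.95 and 4.29 TPM. The opening enzymes of the pathway were thus among the lowest genes above 1 TPM, with Cad the lowest of those 35 by mean level. The kinase Cmpk1, which phosphorylates UMP and CMP from every source, stood well above them at 15.2 and 16.8 TPM.

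CTP is made from UTP by Ctps and Ctps2. Ctps read 1.29 TPM in replicate 1 and 1.80 TPM in replicate 2. Ctps2 read 1.76 and 1.45 TPM. Neither gene led in both libraries, since the ratio of Ctps to Ctps2 was 0.733 in replicate 1 and 1.24 in replicate 2. With posterior mean TPM Ctps2 was the higher in both, at log2 ratios of -0.65 and -0.07. The effective length used for Ctps2 differed 1.47-fold between the libraries, and its CPM was higher in replicate 2 although its TPM was lower.

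Purine rings are built on PRPP, which Prps1 and Prps2 make. Prps1 read 4.41 and 5.44 TPM and Prps2 read 1.80 and 1.96 TPM, so Prps1 led by 2.45-fold and 2.78-fold. Prps1l3, a related gene that is no member of the list and matches Prps1 at 95.3% over 319 bases, stood above both at 13.8 and 15.5 TPM. Counts of Prps1 were not all whole, so some of its reads were shared with other genes.

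The 6 genes from PRPP to IMP differed widely in level. Ppat, which takes the first committed step, read 2.85 and 4.12 TPM. Gart, which carries 3 activities of the pathway, read 3.81 and 4.44 TPM. Pfas, the synthase of the step after the first Gart reactions, was lowest at 1.15 and 2.10 TPM. Paics, which carries the 2 activities of the middle of the route, was highest at 28.5 and 31.8 TPM and second in the whole list. Adsl, which releases fumarate here and again on the way to AMP, read 13.8 and 14.8 TPM. Atic, which closes the ring to IMP, read 6.12 and 8.51 TPM. The level therefore peaked in the middle of the route, and all 6 were higher in replicate 2. The first exons of Paics and Ppat lie on opposite strands and share 272 bases, and the sources used here do not say whether counting used strand.

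From IMP, Adss leads to AMP and the Impdh enzymes with Gmps lead to GMP. Adss read 8.84 and 9.48 TPM, Impdh2 read 7.73 and 9.48 TPM, and Gmps read 4.15 and 4.67 TPM. Impdh1 read only 0.19 and 0.53 TPM, on 78 and 109 counts. Nearly all IMP dehydrogenase RNA was thus Impdh2, by 40.7-fold in replicate 1 and 17.9-fold in replicate 2. A processed pseudogene, Impdh2-ps, is 99.7% identical to Impdh2 over 1545 bases and was given 251 and 375 counts, beside 2227 and 2079 for Impdh2, so the split between them is uncertain.

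Salvage returns free purine bases to nucleotides. Hprt, which takes hypoxanthine and guanine, read 24.1 TPM in replicate 1 and 22.0 TPM in replicate 2. Aprt, which takes adenine, read 4.18 and 4.76 TPM. Hprt ranked next after Paics by mean level, although Rrm1 and Rrm2 stood above it in replicate 2. It exceeded Aprt 5.76-fold and 4.63-fold. Hprt also stood above each of the 6 genes of the new route to IMP other than Paics.

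The folate one-carbon enzymes work in the cytosol and in mitochondria. Shmt2, the mitochondrial serine hydroxymethyltransferase, read 7.23 and 12.3 TPM, and the cytosolic Shmt1 read 3.28 and 5.45 TPM. The ratio of Shmt2 to Shmt1 was 2.20 in replicate 1 and 2.26 in replicate 2, one of the most even of the 12 pairs. Mthfd2, a mitochondrial dehydrogenase and cyclohydrolase, read 8.07 and 9.82 TPM. Mthfd1, the cytosolic enzyme with 3 activities, read 3.52 and 5.31 TPM. Mthfd1l, which releases formate in mitochondria, read 1.92 and 3.37 TPM. Mthfd2 stood above Mthfd1 by 2.29-fold and 1.85-fold, and Mthfd1 above Mthfd1l by 1.83-fold and 1.58-fold. On protein-coding transcripts alone the log2 ratio of Mthfd1 to Mthfd1l was larger, 1.95 and 1.77 in place of 0.87 and 0.66. The mitochondrial enzymes thus held both the highest and the lowest places among the 5 genes.

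In the serine pathway, Phgdh draws on an intermediate of glycolysis, Psat1 adds the amino group and Psph releases serine. Phgdh was listed at 0.00 TPM in replicate 1 and 0.01 TPM in replicate 2, on 0 and 3 counts. A count of 0 allows up to 3 counts, or 0.0483 CPM at the depth of replicate 1. Psat1 read 16.4 and 21.1 TPM, on 7598 and 6738 counts, and Psph read 2.43 and 3.02 TPM. The first enzyme was therefore at or near the limit of detection in both libraries, while the second was the sixth most abundant gene of the list. In the annotation 14 pseudogenes match Phgdh at no less than 95% identity over 100 bases or more. Of these, 7 are listed in the deposited tables and held 6 counts in each library. Among the 7, Vmn2r-ps54 is named for another gene and matches over 118 bases only. It held 5 of the counts in replicate 1 and 0 in replicate 2. The sources used here do not say how reads that align to many places were treated.

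The windows upstream of Phgdh and Psat1 are shown because they belong to consecutive steps with very different levels. They were chosen after their values had been seen. Build and length are as above, and capitals mark CCAAT on the strand of the gene.
Phgdh (chr3:98339970-98340169, minus strand): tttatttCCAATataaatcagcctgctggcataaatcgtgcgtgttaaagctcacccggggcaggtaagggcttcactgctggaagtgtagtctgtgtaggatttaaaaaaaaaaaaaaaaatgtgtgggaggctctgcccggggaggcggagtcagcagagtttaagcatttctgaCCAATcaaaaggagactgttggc
Psat1 (chr19:15925060-15925259, minus strand): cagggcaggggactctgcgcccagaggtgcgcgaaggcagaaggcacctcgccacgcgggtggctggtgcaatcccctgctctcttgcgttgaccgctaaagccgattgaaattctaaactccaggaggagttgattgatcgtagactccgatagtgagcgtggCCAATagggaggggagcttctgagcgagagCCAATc
Both windows hold CCAAT more than once, at 193 and 23 bases before the start of Phgdh and at 36 and 6 bases before that of Psat1. Psat1 has another RefSeq start, which is not shown. The letters TGATGCAA, a site of ATF4 with CEBP proteins, were found on neither strand within the 300-base windows of either gene.

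**Figure D2:**
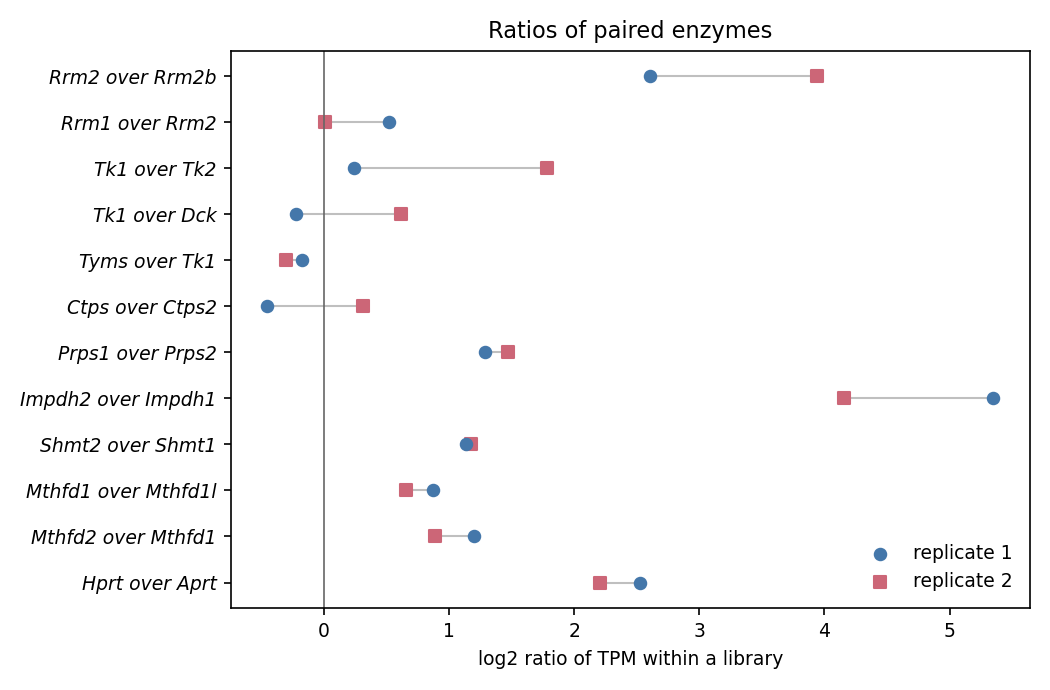
The log2 ratio of TPM within each library for the 12 pairs of enzymes (circle, replicate 1; square, replicate 2), with 0 meaning equal levels. Impdh2 over Impdh1 and Rrm2 over Rrm2b lie farthest to the right, and Tk1 over Dck and Ctps over Ctps2 have their points on opposite sides of 0.

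Of the 12 pairs, 10 had the same sign in both libraries. The widest ratio was that of Impdh2 to Impdh1, at 5.35 and 4.16 on the log2 scale. Next came Rrm2 over Rrm2b at 2.61 and 3.94, and Hprt over Aprt at 2.53 and 2.21. Tyms over Tk1 was close to even, at -0.17 and -0.30, but at -2.34 and -3.05 on protein-coding transcripts alone. The pairs whose ratios moved by more than 1 between the libraries were Rrm2 over Rrm2b, Tk1 over Tk2 and Impdh2 over Impdh1, as the plot of pair ratios shows. For the last of these the effective length of Impdh1 differed, 2026 bases in replicate 1 and 1446 in replicate 2. With posterior mean TPM its log2 ratios were 4.62 and 3.75, and with protein-coding transcripts 5.07 and 4.41, a move of less than 1 in both cases.

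The 2 libraries differed in these genes more than in most. In deposited TPM, 34 of the 38 were higher in replicate 2 and 4 were lower. On CPM scaled by TMM (a factor that evens out library composition), 35 genes had a mean count of at least 100 and 30 of these were higher in replicate 2. Their median log2 difference was 0.39, or 1.31-fold, beside -0.01 for all 9777 genes with that count. All genes were split almost evenly, with 48.2% higher in replicate 2, against 85.7% of the 35. No error can be attached to a difference between single libraries, so these are descriptions of the pair of cultures.

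Of the 35 genes, 3 differed by at least 2-fold, or 8.57%, beside 2.05% of all genes in either direction and 1.56% in the direction of replicate 2. All 3 were higher in replicate 2. They were Rrm2 at 2.60-fold, Tk1 at 2.50-fold and Tyms at 2.20-fold in CPM. These 3 genes serve the making of deoxynucleotides. At 1.5-fold the number was 12, or 34.3%, and all 12 were higher in replicate 2. Of all genes 7.84% were past 1.5-fold in either direction, 489 of the 9777 higher and 278 lower. The other 9 were Shmt1, Rrm1, Mthfd1l, Shmt2, Pfas, Dut, Dck, Atic and Mthfd1, between 1.54-fold and 1.83-fold. The 5 genes that were lower in replicate 2 were Hprt, Dhodh, Rrm2b, Cmpk1 and Tk2, and the largest of these differences was -0.11 on the log2 scale.

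**Figure D3:**
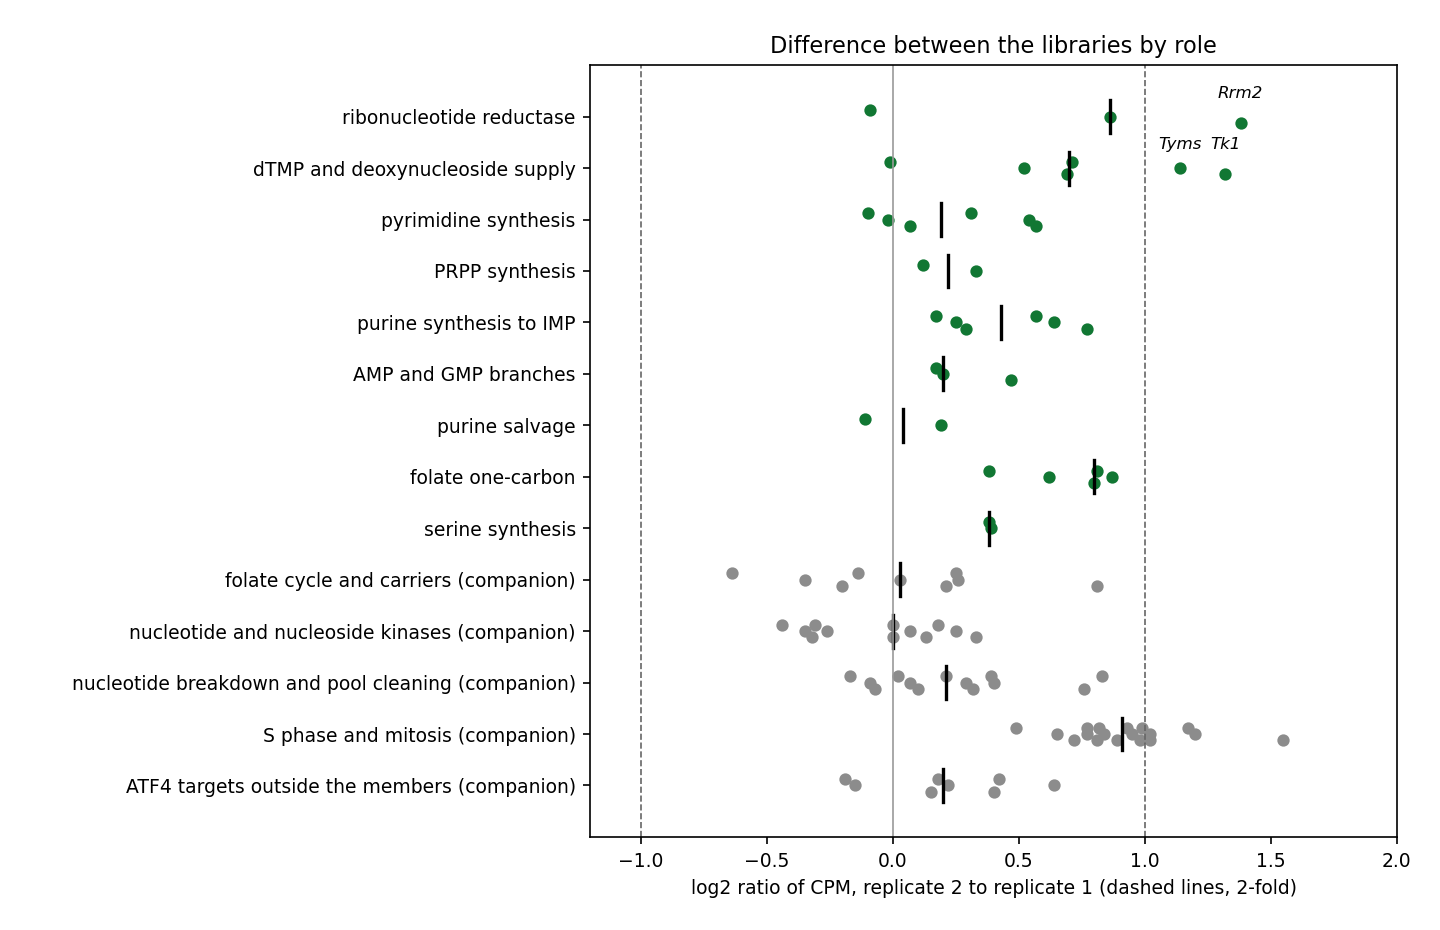
The log2 ratio of TMM-scaled CPM, replicate 2 to replicate 1, for genes that averaged 100 counts or more, by role (green) and for 5 companion lists (grey); black bars are medians and dashed lines mark 2-fold. Rrm2, Tk1 and Tyms lie beyond 2-fold, and the S phase and mitosis genes have the highest median, 0.91.

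The difference was uneven over the roles. Median log2 differences were 0.86 for the 3 ribonucleotide reductase genes, 0.80 for the 5 folate one-carbon genes and 0.70 for the 6 kept genes of deoxynucleotide supply. The 6 genes of the purine route to IMP had a median of 0.43. Serine synthesis, PRPP synthesis, the AMP and GMP branches and pyrimidine synthesis had medians of 0.38, 0.22, 0.20 and 0.19, and purine salvage had 0.04. In the folate group 4 of 5 genes were at least 1.5-fold higher in replicate 2, and in pyrimidine synthesis 0 of 6 were. Of the 18 S phase and mitosis genes, 17 were at least 1.5-fold higher in replicate 2 and 5 at least 2-fold. The part of these genes in the difference of the nucleotide genes was not tested, nor was that of the summed myeloid level given above.

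Genes of neighbouring pathways did not share one pattern. Of 15 nucleotide and nucleoside kinases, 12 reached 1 TPM in both libraries and 0 of the 12 with enough counts differed by 1.5-fold, with a median log2 difference of 0.00. The highest of them were Adk at 147 and 117 TPM, Nme4 at 57.5 and 42.3 TPM, and Ak6 at 41.3 and 41.0 TPM, and the lowest were Ak4 and Cmpk2 at 0.01 TPM or less. Adk, adenosine kinase, was thus more abundant than any of the 38 genes, and its CPM was lower in replicate 2.

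Of 19 genes of the folate cycle and folate carriers, 6 reached 1 TPM in both libraries, and the 9 with enough counts had a median log2 difference of 0.03. Mtr, methionine synthase, read 6.38 and 7.21 TPM, and Gcsh, of the glycine cleavage system, read 3.56 and 3.58 TPM. Gldc and Ftcd were listed at 0.00 TPM in both libraries.

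Of 26 genes found for nucleotide breakdown and pool cleaning, 10 reached 1 TPM in both libraries. Nt5c3, the pyrimidine nucleotidase of red cells, led at 197 and 185 TPM, followed by Nt5c at 22.9 and 25.3 TPM and Itpa at 21.8 and 20.3 TPM. Dpyd and Uox, which open pyrimidine and urate breakdown, were listed at 0.00 TPM. The 13 genes with enough counts had a median log2 difference of 0.21. Nt5c3 was therefore more abundant than any of the 38 genes, with a log2 difference of -0.07 between the libraries.

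Gene totals include transcripts that are not annotated as coding for the full protein. Among the 35 genes at 1 TPM, the leading transcript held a median of 87.7% of the gene's TPM, beside 79.9% over 7781 protein-coding genes at that level. In 15 of the 35 it held at least 90%, and in 4 it held under 50%, beside 40.4% and 20.2% of those genes. Protein-coding transcripts held a median of 93.3% of the TPM of the 35 genes and 95.7% over the wider set. They held under 50% in 5 genes, Tyms, Cmpk1, Dhodh, Shmt1 and Mthfd1l, and the wider set had 9.75% of such genes.

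**Figure D4:**
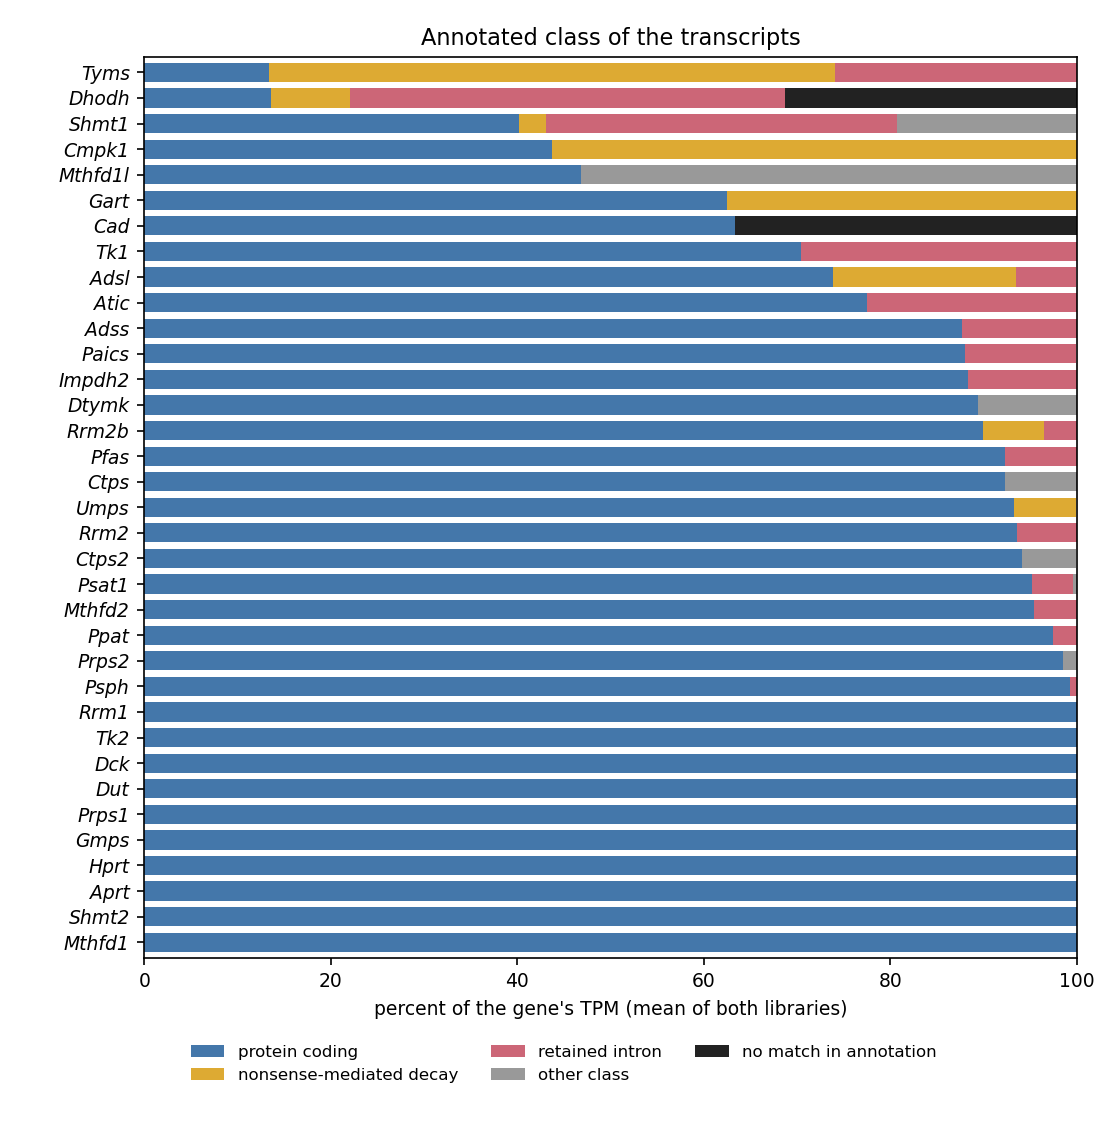
Percent of each gene's TPM, as a mean of both libraries, in protein-coding transcripts (blue), transcripts marked for nonsense-mediated decay (yellow), retained-intron transcripts (red), other classes (grey) and transcripts with no match in the annotation used for classes (black), for the 35 genes at 1 TPM. Tyms, Dhodh, Shmt1, Cmpk1 and Mthfd1l, at the top, have less than 50% blue.

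Tyms, 1 of the 3 genes past 2-fold between the libraries, was changed by this split. Its transcript Tyms-205, annotated as a target of nonsense-mediated decay, held 52.3% of its TPM in replicate 1 and 62.4% in replicate 2, while the protein-coding Tyms-201 held 17.6% and 9.2%. On protein-coding transcripts alone Tyms read 0.53 and 0.71 TPM, and its TPM ratio between the libraries was 1.34. Over all transcripts the ratio was above 2 in TPM as in CPM. By counts the coding share was larger, at 44.4% and 27.7%, since the short forms take more TPM for each read. The 2.20-fold difference of Tyms therefore rests on reads given to its other forms. Tk1 had retained-intron transcripts at 20.7% and 38.5% of its TPM, and its protein-coding TPM was still 2.19-fold higher in replicate 2. Rrm2 was 92.9% and 94.2% protein coding, with a ratio of coding TPM of 2.56, and Rrm1 had a single transcript.

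Cmpk1 divided its TPM between the protein-coding Cmpk1-201, at 47.6% and 39.8%, and Cmpk1-204, annotated for decay, at 52.4% and 60.2%. By counts Cmpk1-201 held far more, 4408 and 2798 beside 734 and 620. Shmt1-205, a retained-intron form, held 50.5% of the TPM of Shmt1 in replicate 1 and 21.8% in replicate 2, so the makeup of this gene differed between the libraries. With protein-coding transcripts alone, Shmt1 was 2.03-fold higher in replicate 2 in TPM, at 1.19 and 2.41 TPM from 604 and 696 counts. Its 1.83-fold difference over all transcripts was in CPM, so these 2 ratios are on different scales. On coding transcripts Shmt2 exceeded Shmt1 by 2.60 and 2.36 on the log2 scale of TPM instead of 1.14 and 1.18. Mthfd1l-204, a processed transcript, held 52.5% and 53.7% of Mthfd1l. Gart-203, annotated for decay, held 41.6% and 33.6% of Gart.

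Among the 35 genes at 1 TPM, Dhodh had the lowest protein-coding level. Its coding transcripts held 20.0% and 7.19% of its TPM, or 0.27 and 0.10 TPM on 39 and 17 counts, and retained-intron transcripts held 37.8% and 55.4%. A further 28.1% and 34.5% lay in transcripts with no match in the annotation used for classes. For Cad, whose protein-coding transcript Cad-201 held 97.7% and 90.3% of its counts, transcripts with no match held 39.0% and 34.3% of its TPM, and their class is unknown. Of the 35 genes, 4 fell under 1 TPM in at least 1 library when only protein-coding transcripts were summed, which leaves 31. These were Tyms, Cad, Dhodh and Mthfd1l. The share of all protein-coding genes at 1 TPM that fell in this way was 5.23%. For Cad, all of the TPM left out of the sum lay in the transcripts of unknown class.

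**Figure D5:**
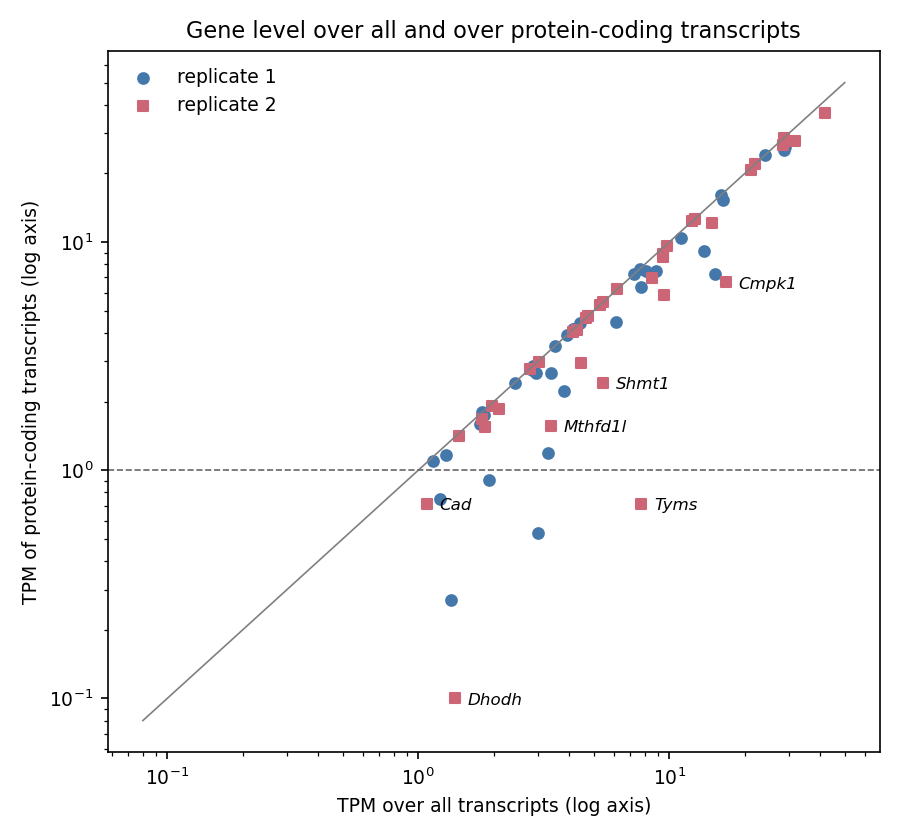
TPM of protein-coding transcripts against TPM over all transcripts, both on log axes, for the 35 genes at 1 TPM (circle, replicate 1; square, replicate 2), with a line of equality and a dashed line at 1 TPM. On or near the line lie genes with most of their TPM in protein-coding transcripts, 20 of the 35 at 90% or more. Dhodh, Tyms, Shmt1, Mthfd1l and Cmpk1 lie farthest below it, and others, such as Gart, Cad, Tk1, Adsl and Atic, lie less far below.

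Promoters were matched for 35 of the 38 genes, all but Rrm2b, Dhodh and Pfas, as windows from 250 bases before to 50 bases after the RefSeq start, searched on both strands. The E2F site TTTCCCGC was found in 2 genes, Ppat and Prps2, or 5.71%, beside 1.24% of 27025 genes. The E2F variants TTTGGCGC and TTTGCCGC were found in 0 of the 35, beside 0.585% and 0.507% of all genes. The E-box CACGTG was found in 5 genes, Atic, Dtymk, Impdh2, Paics and Tyms, or 14.3%, beside 8.09%. CCAAT was found in 16, or 45.7%, beside 41.1%. TGATGCAA was found in 0, beside 1.03%. No motif in this set contains another. None of the genes more than 2-fold apart between the libraries held an E2F site of these spellings in this window. A match or its absence here describes letters only.

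Some genes share sequence with others, which limits how far their values can be trusted. Of the 38, 11 match at least 1 annotated pseudogene, with 35 matches in all. Some are short matches to pseudogenes named for other genes, such as Vmn2r-ps54, Vmn1r-ps144 and Mdm4-ps. A matching pseudogene with 10 or more counts was found for 1 gene, Impdh2. Several matches are absent from the deposited tables and have no count, so they could not be checked in this way. Among them are Gm48445 and Gm48455 for Rrm2, Tyms-ps for Tyms (677 bases) and Gm8616 for Rrm2b (1051 bases). Opposite-strand exons of other genes overlap Tk1 by 83 bases (Afmid), Shmt1 by 184 bases (Smcr8), Psph by 452 bases (Cct6a) and Gart by 1014 bases (Gm15964, on 43 and 16 counts). Smcr8 held 17742 and 10282 counts and Cct6a 5854 and 5297, both more than the gene they overlap. Counts were whole in both libraries for 33 of the 38 genes, to within 0.005, and not for Tk1, Prps1, Impdh2, Gmps and Phgdh.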

How the data were processed

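The 38 genes and the companion lists were chosen with earlier results of these data known. RNA had been depleted of ribosomal RNA and made into libraries with ScriptSeq from 100 ng, size 200 to 1000, per the labels. The authors deposited expected counts per gene and transcript, per the file headers. TPM and FPKM were deposited beside them, per the file headers, as was each transcript's percent of the TPM of its gene. Credible bounds and the posterior SD of each count were deposited without an interval level. The assembly was mm10 with GENCODE M4, per the submitters' processing notes. The sources used here name no counting program and do not say whether it used strand.

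Symbols, classes and coordinates came from GENCODE M21 (GRCm38), joined on identifiers without version, and 42462 of 43346 rows matched. Another 26345 rows named no gene, were left out; their counts were 18 and 5, no more than 2.90e-05% of either library. Depth was 62081014 and 41051163 counts; floors of 3 counts cover counting error only. CPM used rounded counts with edgeR 4.0.16 TMM factors of 0.989 and 1.011 and a prior count of 0.5, for genes averaging 100 counts or more. DESeq2 1.42.0 size factors were an alternative. The TMM ratios were tested on simulated data, and the DESeq2 scaling was not. Copies were sought with blastn 2.17.0 at 95% identity over 100 bases. Python 3.11 and R 4.3.3 were used. The labels call the samples biological replicates, with nothing on how the cultures were kept apart.

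The text gives every gene of the list, both genes of each pair, and the 3 highest and 2 lowest genes of each companion list by mean TPM, where ties at 0 leave more than 2. Sequences were to be shown for genes singled out by a pair or by the largest replicate ratios. Pnp had no match and was not analysed here. Values of a pair of companion genes are not reported here.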

Additional observations from a re-analysis of the deposited data

How the results depend on the processing

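At 5 TPM in place of 1 TPM, 14 of the 38 genes passed in both libraries in place of 35. Thresholds of 0.5 TPM, posterior mean TPM and FPKM left 35, rescaled TPM gave 36 and protein-coding transcripts, an alternative chosen after seeing the data, gave 31. The median level was 15.4 in FPKM, which is another unit. It was 31.7 in TPM rescaled over nuclear protein-coding genes (factors 7.09 and 6.95), since most deposited TPM lay outside those genes. With 1 replicate left out the median level ran from 3.67 to 5.38 TPM. With 1 replicate left out the level count was 35 each time and the leading transcript share ranged from 85.2% to 90.9%. By counts that share was 94.7%. With no filter on counts 6 genes were past 2-fold, the added ones being Dctd, Impdh1 and Phgdh. That is 15.8% of the 38, beside 19.5% of all 43346 rows, so at this setting the share was below that of all genes. The median log2 difference was then 0.50, and at 1.5-fold with the filter the number was 12. DESeq2 size factors and centred TPM ratios gave the same 3 genes as TMM. Centred TPM ratios of protein-coding transcripts gave 4, with Rrm2, Tk1 and Shmt1 higher and Dhodh lower in replicate 2. Over 4 alternatives to TPM, 48 values of single pairs were recomputed; 29 moved by no more than the SD between libraries and 19 by more. Of the 48, 4 changed the sign of the mean: on counts, Tk1 over Tk2 went from 1.01 to -0.04, Tk1 over Dck from 0.20 to -1.24 and Ctps over Ctps2 from -0.07 to 0.84, and on protein-coding transcripts Tk1 over Dck was -0.32. Leaving out a library returns the other library's ratio, so for Tk1 over Dck and Ctps over Ctps2 the sign depended on which was kept. With 2 libraries, a difference between them has no value once either is left out. No paired analysis was possible because the labels hold 1 group only. Depth limits Dctd and Phgdh most, at 16 counts or fewer.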

Other observations

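Genes that supply or draw on the same carbon units had levels of their own. Of 10 genes of the methionine cycle and transsulphuration, 4 reached 1 TPM in both libraries. Mat2b, the regulatory subunit of the enzyme that makes S-adenosylmethionine, read 25.2 TPM in replicate 1 and 22.9 TPM in replicate 2. Mat2a, its catalytic subunit, read 19.0 and 20.6 TPM, and Ahcyl2 read 14.5 and 12.9 TPM. Cth and Mat1a were listed at 0.00 TPM in both libraries. Of 6 nucleoside transporters only Slc29a1, the equilibrative carrier of the cell surface, reached 1 TPM in both, at 9.73 and 11.6 TPM, and Slc29a3 and Slc28a3 followed at 0.11 TPM or less. The lowest, Slc28a1 and Slc28a2, were at 0.01 TPM or less. Of the 3 tissue-restricted paralogues, Adssl1 and Prps1l1 read 0.01 TPM or less, in contrast to Prps1l3.

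Genes of the MYC family, Atf4 with its targets, and S phase and mitosis genes were also measured. In the MYC family, the antagonist Mxd1 at 21.2 and 18.2 TPM stood above Max at 15.1 and 12.2 TPM and Mxi1 at 5.76 and 4.92 TPM. Mycn and Mycl were at 0.01 TPM or less. Myc, named after its values were seen, read 1.15 and 1.61 TPM. The 4 MYC family genes with enough counts had a median log2 difference of -0.19 between the libraries. A list of ATF4 targets outside the 38 genes held 11 genes, of which 7 reached 1 TPM in both libraries. The 11 and the 7 include Atf4 itself, the factor rather than a target, at 21.3 and 23.7 TPM. Ddit3 read 98.2 and 85.6 TPM, Asns 77.2 and 76.7 TPM, and Slc3a2 23.1 and 25.1 TPM, while Vldlr was at 0.01 TPM or less and Chac1 at 0.03 TPM or less. The 8 genes with enough counts had a median log2 difference of 0.20. Among the S phase and mitosis genes, Top2a read 48.9 and 83.2 TPM, Ccnb1 38.7 and 61.7 TPM, and Ccna2 28.7 and 49.0 TPM, and the lowest were Ccne2 at 2.01 and 3.92 TPM and Cdt1 at 0.99 and 1.61 TPM.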
